A study of Mus musculus with 8 samples.

Results

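Haematopoietic cells enter the bone marrow and stay there through a small set of surface receptors, and 10 of the genes that encode them are described here across normal and chronic myeloid leukaemia (CML) cells of the mouse. They are the chemokine receptor gene Cxcr4, the integrin subunit genes Itga4, Itga5, Itga6, Itgal, Itgb1, Itgb2 and Itgb7, the selectin ligand gene Selplg and the Roundabout receptor gene Robo4. They were taken by symbol for these roles and are 10 of the 20207 genes in the deposited tables. Of the 10, 10 passed the filter on low values (a total above 1 RPKM over the 8 libraries), which left 12561 genes for the tests. RPKM is reads per kilobase of gene model, scaled to the mapped reads of the library, so it allows levels of different genes to be compared per length.

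As background, CXCR4 responds to the chemokine CXCL12, which niche stromal cells release, and holds stem cells in the marrow. Integrins are dimers of an alpha and a beta chain that bind adhesion molecules and matrix: alpha 4 with beta 1 (VLA-4) binds VCAM1 and fibronectin, alpha 4 with beta 7 binds MAdCAM1, alpha 5 with beta 1 binds fibronectin, alpha 6 with beta 1 binds laminin, and alpha L with beta 2 (LFA-1) binds ICAMs. PSGL-1, the product of Selplg, carries sugars that selectins on vessel walls bind, and ROBO4 is found on stem cells and on endothelium.

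The study compared normal stem and progenitor cells with their CML counterparts. CML arose in mice that carry both a Tal1-tTA and a TRE-BCR-ABL1 transgene, in which the transactivator under Tal1 control switches on the BCR-ABL1 oncogene once doxycycline is withdrawn, and the study's methods give the controls as littermates with Tal1-tTA alone. Bone marrow cells were sorted as LT (CD150+CD48-CD135-KLS+, the most primitive stem cells), ST (CD150-CD48-CD135-KLS+, short-term stem cells) and KLS- (cKit+Lin-Sca-1-, committed progenitors), KLS+ being cKit+Lin-Sca-1+. There were 2 LT-HSC libraries, 1 ST-HSC library and 1 normal KLS- library, and likewise 2 LT-CML libraries, 1 ST-CML library and 1 CML KLS- library. The labels give 6 months of age for LT-HSC replicate 2 and 2 months for the other 3 normal libraries, with no age for the CML libraries, so age and library cannot be told apart within LT-HSCs. Labels and methods also differ on the strain, C57BL/6 for all 8 samples in the labels and FVB/N for the transgenic lines in the methods. The number of mice behind a library is not given for these libraries, so p-values measure the spread between these samples, which may be technical.

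Depth, estimated from the steps between low RPKM values, was 17.7 to 23.7 M reads per library. The summed RPKM was 324114 to 372849 in the 6 LT and ST libraries and 444650 and 465695 in the KLS- libraries. The Sca-1 gene Ly6a was at 72.4 to 152 RPKM in LT and ST and 8.16 and 11.7 RPKM in KLS- libraries, and Slamf1, which encodes CD150, was higher in every LT than in every ST library. Genes of both markers that LT and ST were sorted to lack were higher in ST: Flt3, which encodes CD135, was at 61.6 and 71.6 RPKM against 2.52 to 19.2 RPKM in LT, and Cd48 at 41.8 and 45.2 RPKM against 5.17 to 29.5 RPKM. Markers of other lineages were present in part. The summed RPKM of 10 granulocyte genes was 328 to 4144 in LT, with the highest value in LT-HSC replicate 2. It was 244 and 1494 in ST and 8892 and 14900 in KLS-, where most of it was Mpo, at 7891 and 13120 RPKM. The sum of 6 monocyte genes was 1.81 to 22.9 RPKM in LT, 3.68 and 12.6 RPKM in ST and 301 and 342 RPKM in KLS-, and that of 6 megakaryocyte genes was 278 to 472 RPKM in LT and at most 88.3 RPKM in ST and KLS-. The sums of 6 erythroid genes (855 and 1868 RPKM) and 5 mast cell and basophil genes (110 and 119 RPKM) were also highest in KLS-, against at most 99.5 and 26.0 RPKM in LT and ST. In such bulk samples, fewer cells of a type and less RNA per cell cannot be told apart.

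In the LT libraries, Itgb1 had the highest mean level of the 10 genes at 24.4 RPKM ± 1.51 (SD, n = 4). Itgb2 followed at 15.4 ± 2.60 RPKM, Selplg at 15.4 ± 2.88 RPKM, Itga4 at 14.1 ± 1.70 RPKM and Itga6 at 11.4 ± 3.59 RPKM. These 4 neighbours lay within their spread of each other. Cxcr4, at 5.99 ± 2.26 RPKM, and Itga5, at 4.36 ± 0.429 RPKM, came next and overlapped. Robo4, at 3.45 ± 0.486 RPKM, lay below every LT value of Itga5. Itgb7, at 1.24 ± 0.727 RPKM, and Itgal, at 1.03 ± 0.253 RPKM, were lowest and also overlapped.

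**Figure D1:**
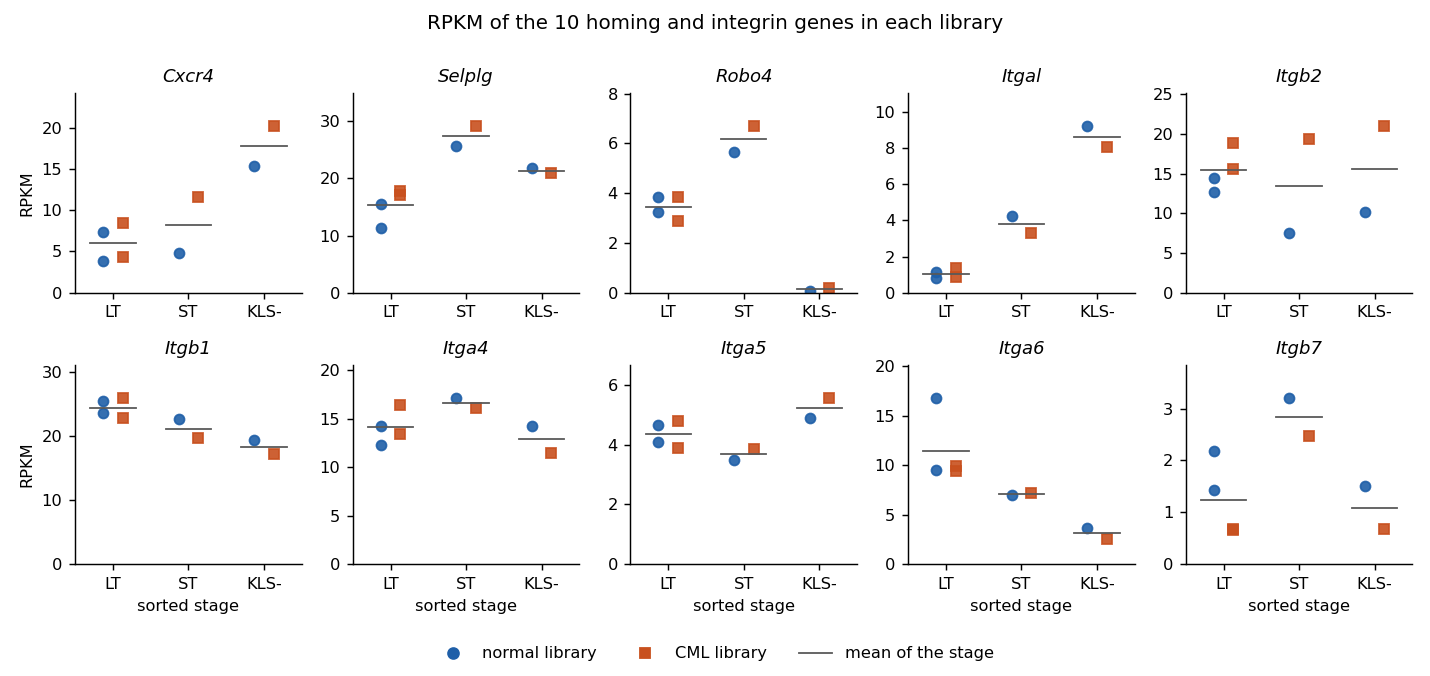
RPKM of each of the 10 genes on a linear axis from 0, by sorted stage (LT, 4 libraries, ST, 2 libraries, KLS-, 2 libraries), with circles for normal libraries, squares for CML libraries and a line at the mean of the stage. Itgal went from 0.796 to 1.34 RPKM in LT to 8.08 and 9.21 RPKM in KLS-, Robo4 was at most 0.183 RPKM in KLS-, and the CML squares of Itgb2 were above every normal circle.

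More of these genes were called between stages than between CML and normal cells. With limma on log2(RPKM + 1), 6 of the 10 genes differed between KLS- and LT cells at an adjusted p under 0.05, 3 higher and 3 lower in KLS- cells. Over all genes tested 46.4% were called in that comparison, 20.8% higher and 25.5% lower, so a large count is common in that comparison and is nothing particular to these genes. The direction of these calls moved with the scaling: 2616 genes were called higher and 3207 lower as deposited, and 1331 higher and 5059 lower once the libraries were scaled to a common sum of RPKM, a setting added after the data had been seen that moved the median of all genes from -0.07 to -0.29. Between ST and LT cells 4 of the 10 were called, all 4 higher in ST cells, where 4.87% of all genes were called, 2.13% higher and 2.74% lower. At an unadjusted p under 0.05 there were 6 of the 10 for KLS- against LT (54.8% of all genes) and 5 of the 10 for ST against LT (19.6%). Between KLS- and ST cells, a comparison added after the data had been seen, 5 of the 10 were called against 40.0% of all genes (18.8% higher and 21.2% lower), with 2357 genes higher and 2664 lower, or 1403 and 4187 with the common sum. The median log2 difference of the 10 genes was -0.07 for KLS- against LT and 0.29 for ST against LT, with -0.07 and -0.01 for all genes. The 2 comparisons share the 4 LT libraries.

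None of the 10 genes was called by limma in the planned comparisons of CML with normal cells, while an added fit of all 8 libraries called Itgb2 and Itgb7 and is given with those genes. For the 3 CML stem cell libraries (LT-CML and ST-CML) against the 3 normal HSC libraries, 2.34% of all genes were called, 1.18% higher and 1.16% lower, and 1 of the 10 had an unadjusted p under 0.05, Itgb2, against 12.5% of all genes. For LT-CML against LT-HSC, 1.73% of all genes were called, 0.939% higher and 0.788% lower, and 1 of the 10 had an unadjusted p under 0.05, Itgb7, against 11.6% of all genes. The median log2 difference of the 10 genes was 0.03 and 0.04 in these comparisons, with -0.04 and -0.01 for all genes. The test of whether the CML difference in KLS- cells departed from that in stem cells called 0 of the 10 and had 0 with an unadjusted p under 0.05, against 0.00796% and 2.58% of all genes.

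**Figure D2:**
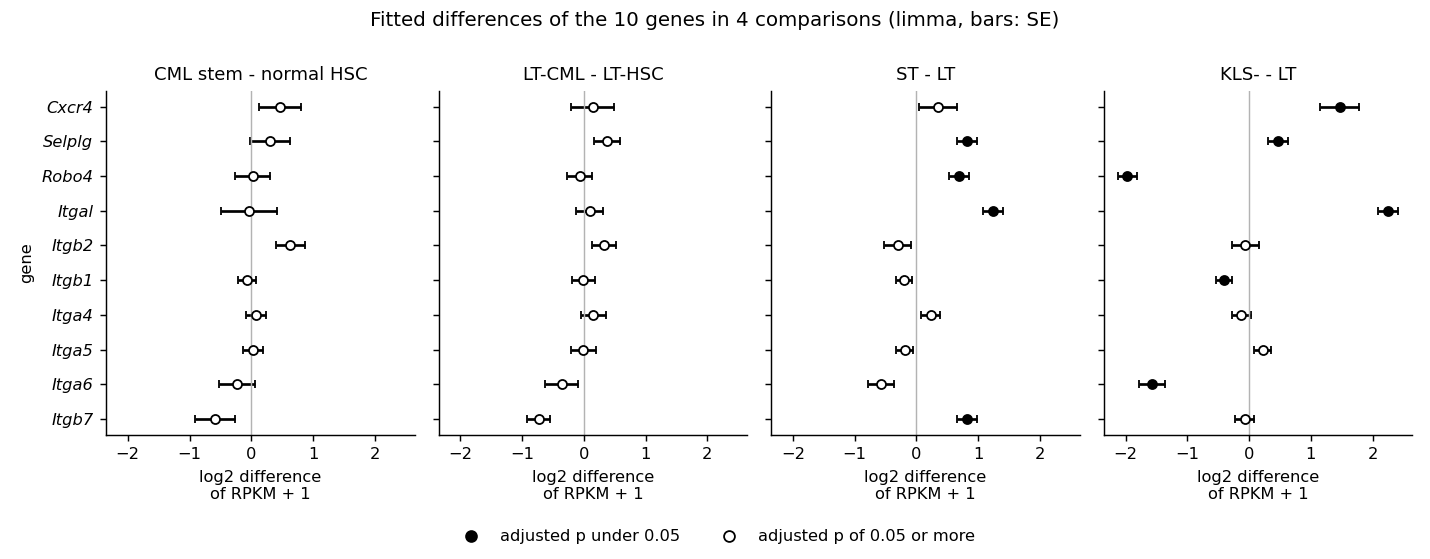
Fitted log2 difference of RPKM + 1 for each gene in 4 comparisons, with bars for the SE from limma, filled points for an adjusted p under 0.05 and open points for the rest. The 2 panels for CML against normal hold open points only, ST against LT has 4 filled points above 0, and KLS- against LT has 3 filled points above 0 and 3 below.

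Cxcr4, on chromosome 1 (mm9, 130484776 to 130488870, minus strand, 2 exons), was at 3.87 and 7.39 RPKM in LT-HSCs, 4.78 in ST-HSCs and 15.3 in normal KLS- cells. In CML it was at 8.41 and 4.27 RPKM in LT-CML cells, 11.6 in ST-CML cells and 20.1 in CML KLS- cells. Both KLS- libraries were thus above the 6 LT and ST libraries, with a mean of 17.7 RPKM, 2.96-fold that of LT cells. The difference was 1.47 on the log2 scale (SE 0.31, limma adjusted p = 0.0054), or 1.42 relative to the median of all genes under the common sum, and it was called under 13 of 15 alternatives. The call was lost without the normal KLS- library (1.42, adjusted p = 0.0508) and with no minimum on RPKM (1.47, adjusted p = 0.0572). Against ST cells it differed by 1.12 (SE 0.36, adjusted p = 0.0358). That call was past 0.05 under 7 of 14 alternative settings and was lost under each of the 3 scalings and without ST-HSC (0.67, adjusted p = 0.271), normal KLS- (adjusted p = 0.144) or CML KLS- cells (adjusted p = 0.126). Between ST and LT cells the groups overlapped (0.35, SE 0.31, adjusted p = 0.593).

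CML against normal stem cells gave a Cxcr4 difference of 0.47 (SE 0.34, adjusted p = 0.659), with 1 CML library inside the range of the normal ones and 2 above it. The ST-CML library had 11.6 RPKM against 4.78 RPKM in the ST-HSC library, a gap with no replicate at that stage. Across LT-CML and LT-HSC cells the 2 values of each group interleaved, at 4.27 and 8.41 RPKM against 3.87 and 7.39 RPKM.

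Other genes of the CXCR4 axis were read beside it. Cxcl12, its ligand, was at 0.217 RPKM or less in every library, and Cxcr7, another receptor of that ligand, at 0.128 RPKM or less. Of 19 listed genes of CXCR4 signalling and trafficking 16 were tested, and for KLS- against LT 1 was called higher and 5 lower, with a median of -0.21 against -0.07 for all genes. Of all genes, 20.8% were called higher and 25.5% lower. With libraries scaled to a common sum, 1 of the 16 was higher and 9 were lower. Rgs1, a regulator of G protein signalling that ends chemokine responses, was at 268 to 353 RPKM in LT, 472 and 721 RPKM in ST and 27.1 and 71.1 RPKM in KLS- cells (KLS- against LT -2.72, SE 0.29, adjusted p = 0.000206). Rgs18 of the same family was lower by a log2 difference of -1.56 (SE 0.16, adjusted p = 0.000178), as was Cd74, the invariant chain and a receptor for the cytokine MIF, at -2.72 (SE 0.80, adjusted p = 0.0217, or 0.266 without the normal KLS- library). Usp14, a deubiquitinase, was the gene called higher (1.02, SE 0.16, adjusted p = 0.00118). For ST against LT 1 of the 16 was called, Rgs2 (0.80, SE 0.14, adjusted p = 0.0157), and 0 were called in the CML comparisons, with 2 at an unadjusted p under 0.05 for CML stem cells and 3 for LT-CML.

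The start-site regions of 6 of the 10 genes matched the RefSeq table by symbol, and the 250 bases before the start are printed for the 3 of them that were called between KLS- and LT cells, Cxcr4 (higher), Itgb1 and Robo4 (both lower). They lie in GRCm38.p6 at chr1:128592300-128592549 on the minus strand, chr8:128685404-128685653 on the plus strand and chr9:37401722-37401971 on the plus strand. Capitals mark GGGCGG, the SP1 box, or its reverse complement CCGCCC.
Cxcr4: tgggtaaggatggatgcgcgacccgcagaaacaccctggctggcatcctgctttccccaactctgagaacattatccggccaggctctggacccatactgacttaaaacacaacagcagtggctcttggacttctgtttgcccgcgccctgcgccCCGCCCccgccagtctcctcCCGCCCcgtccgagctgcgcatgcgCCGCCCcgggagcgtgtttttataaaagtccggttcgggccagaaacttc
Itgb1: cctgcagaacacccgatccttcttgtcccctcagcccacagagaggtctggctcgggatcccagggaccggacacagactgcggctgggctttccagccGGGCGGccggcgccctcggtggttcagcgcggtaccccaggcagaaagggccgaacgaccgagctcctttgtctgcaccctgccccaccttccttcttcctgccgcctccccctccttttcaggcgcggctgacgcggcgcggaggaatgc
Robo4: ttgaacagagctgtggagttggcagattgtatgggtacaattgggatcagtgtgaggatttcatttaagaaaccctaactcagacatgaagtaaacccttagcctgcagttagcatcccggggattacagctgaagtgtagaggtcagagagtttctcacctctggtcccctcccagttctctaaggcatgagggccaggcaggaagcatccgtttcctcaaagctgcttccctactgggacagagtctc
The windows differ in base composition, with 61.2% G and C for Cxcr4, 68.0% for Itgb1 and 49.6% for Robo4. Searched on both strands, the SP1 box occurred 3 times before Cxcr4, 1 time before Itgb1 and 0 times before Robo4, and 32.7% of the 32851 promoters in the table hold it. The ETS core CCGGAA (12.0% of promoters), the GATA motif AGATAA (9.99%), the RUNX motif TGTGGT (14.0%) and the E-box CACGTG (6.02%) were in none of these 3 windows, and no marked motif overlapped another. A match is a description of the letters and not a site of binding.

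Selplg, on chromosome 5 (mm9, 114267807 to 114280510, minus strand, 3 exons), was at 15.5 and 11.3 RPKM in LT-HSCs, 25.8 in ST-HSCs and 21.8 in normal KLS- cells. In CML it was at 17.0 and 17.7 RPKM in LT-CML cells, 29.1 in ST-CML cells and 20.9 in CML KLS- cells. ST cells were above LT cells in every library, at a mean of 27.4 RPKM, 1.78-fold that of LT (0.81, SE 0.16, adjusted p = 0.0255). That call was kept under 10 of 15 alternative settings, and it was lost without ST-HSC (adjusted p = 0.236), ST-CML (0.203), LT-CML replicate 1 (0.0546) or LT-CML replicate 2 (0.0501). KLS- cells were above LT cells by 0.47 (SE 0.16, adjusted p = 0.0409), a call held by 4 of 15 alternatives and kept, among the leave-outs, without either LT-HSC library only. Without normal KLS- cells it was 0.29 (adjusted p = 0.362). Scaled to a common sum of RPKM, the Selplg difference was 0.12 (adjusted p = 0.575), while all genes had a median of -0.29. Relative to that median it was 0.41, and 0.54 in the unscaled values.

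CML stem cells did not differ detectably from normal HSCs in Selplg (0.30, SE 0.32, adjusted p = 0.772). Both LT-CML libraries were above both LT-HSC libraries, a difference of 0.37 (SE 0.21, adjusted p = 0.596).

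PSGL-1 binds selectins once glycosyltransferases have dressed it, and 10 genes of that route were tested. For KLS- against LT, 4 were called higher and 3 lower, with a median of 0.06 against -0.07 for all genes. Fut7, the fucosyltransferase that completes sialyl Lewis x, was at 2.78 to 5.42 RPKM in LT, 11.3 and 13.1 RPKM in ST and 10.8 and 13.4 RPKM in KLS- cells. Its log2 difference was 1.46 for ST against LT (SE 0.20, adjusted p = 0.00532) and 1.45 for KLS- against LT (SE 0.20, adjusted p = 0.000721). It was the 1 gene of the 10 called for ST against LT. C1galt1c1, the chaperone of the core 1 O-glycan enzyme, was higher in KLS- than in LT cells by 1.41 (SE 0.20, adjusted p = 0.000777), at 27.4 and 34.0 RPKM against 8.70 to 14.1 RPKM. Tpst2, which sulphates tyrosines of PSGL-1, was lower by -1.01 (SE 0.16, adjusted p = 0.00145), and Gcnt1, which branches core 2 glycans, by -0.71 (SE 0.18, adjusted p = 0.0105, or 0.162 without CML KLS- cells). In the CML comparisons 0 of the 10 were called, with 0 at an unadjusted p under 0.05 for CML stem cells and 2 for LT-CML.

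Robo4, on chromosome 9 (mm9, 37209482 to 37221608, plus strand, 18 exons), was at 3.85 and 3.25 RPKM in LT-HSCs, 5.64 in ST-HSCs and 0.0803 in normal KLS- cells. In CML it was at 3.85 and 2.86 RPKM in LT-CML cells, 6.68 in ST-CML cells and 0.183 in CML KLS- cells. The KLS- values rest on about 7 and 13 reads by the estimated depth, and their mean was 26.2-fold below that of LT and 46.8-fold below that of ST cells. On the log2(RPKM + 1) scale, which understates the change of low genes, KLS- against LT was -1.97 (SE 0.15, adjusted p = 4.68e-05) and KLS- against ST was -2.66 (SE 0.18, adjusted p = 4.28e-05). These calls held under each of 15 and 14 alternatives, and with a pseudocount of 0.1 the KLS- against LT difference was -3.97. ST cells were above LT cells by 0.69 (SE 0.15, adjusted p = 0.0390), a call that 4 of 15 alternatives kept and that was lost when any 1 of the 8 libraries was left out, with an adjusted p of 0.354 without ST-CML.

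CML stem cells against normal HSCs gave a Robo4 difference of 0.02 (SE 0.28, adjusted p = 0.986). Endothelial cells also express Robo4, and the 8 endothelial marker genes were each at 0.888 RPKM or less. Their sum was 0.602 to 1.64 RPKM in LT, 0.453 and 0.799 RPKM in ST and 0.140 and 0.297 RPKM in KLS- cells. Of the 8, Kdr (-0.43, SE 0.11, adjusted p = 0.0123) and Cldn5 (-0.68, SE 0.22, adjusted p = 0.0308) were tested, and both were lower in KLS- than in LT cells, as Robo4 was. Cdh5 was listed at 0 in 5 of the 8 libraries and at most 0.0276 RPKM in the rest. The part of endothelial cells in the Robo4 level was not tested.

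The 2 chains of LFA-1 followed different patterns. Itgal, the alpha L chain, on chromosome 7 (mm9, 134439774 to 134478651, plus strand, 32 exons), was at 1.13 and 0.796 RPKM in LT-HSCs, 4.25 in ST-HSCs and 9.21 in normal KLS- cells. Among CML libraries it was at 0.856 and 1.34 RPKM in LT-CML cells, 3.31 in ST-CML cells and 8.08 in CML KLS- cells. The 3 stages did not overlap, with KLS- cells 8.38-fold and ST cells 3.66-fold above LT cells. The log2 difference was 2.25 for KLS- against LT (SE 0.17, adjusted p = 3.65e-05), 1.24 for ST against LT (SE 0.17, adjusted p = 0.00497) and 1.02 for KLS- against ST (SE 0.19, adjusted p = 0.00343). Of the alternatives, 15 of 15, 13 of 15 and 14 of 14 kept these calls, and without ST-HSC the ST against LT difference was 1.09 (adjusted p = 0.0854). The summed monocyte markers, given above, were also highest in KLS- cells. The granulocyte sum was too, but most of it was Mpo, at 7891 and 13120 RPKM. Of the 10 granulocyte genes, limma called 2 higher and 1 lower in KLS- than in LT cells. Their median log2 difference was -0.89, against -0.07 for all genes. The part of monocyte and granulocyte cells in the Itgal level was not tested. CML and normal stem cells did not differ detectably (-0.03, SE 0.45, adjusted p = 0.988).

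Itgb2, the beta 2 chain shared by LFA-1 and Mac-1, on chromosome 10 (mm9, 76992997 to 77028453, plus strand, 16 exons), was at 14.5 and 12.7 RPKM in LT-HSCs, 7.55 in ST-HSCs and 10.1 in normal KLS- cells. CML libraries had 15.6 and 18.9 RPKM in LT-CML cells, 19.3 in ST-CML cells and 20.9 in CML KLS- cells. Every CML library was above every normal library, and no other of the 10 genes had CML and normal libraries without overlap. Of all genes tested, 5.64% had no such overlap, counted in either direction. The means were 18.7 and 11.2 RPKM, 1.67-fold, and an exact permutation test of the 4 CML against the 4 normal libraries gave p = 0.0286, two-sided, the smallest p that 4 against 4 allows. This ignores stage.

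By limma the Itgb2 difference between CML stem cells and normal HSCs was 0.63 (SE 0.23, adjusted p = 0.318, unadjusted p = 0.0286). The exact permutation p of these 3 against 3 libraries was 0.1, two-sided, the smallest possible. A fit of all 8 libraries with stage as a covariate, added after the data had been seen, gave 0.72 (SE 0.18, adjusted p = 0.0474) and called 6.18% of all genes. The gap was 0.32 between LT-CML and LT-HSC cells (SE 0.20, adjusted p = 0.641), and 1.25 and 0.98 in the pairs of ST and KLS- libraries, which have no replicate. The summed granulocyte markers were 328 to 14900 RPKM in CML and 244 to 8892 RPKM in normal libraries, with overlapping ranges, and their part was not tested. Between the stages Itgb2 overlapped, with -0.06 for KLS- against LT (SE 0.22, adjusted p = 0.842) and -0.30 for ST against LT (SE 0.22, adjusted p = 0.484).

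The other alpha chain that pairs with beta 2 and was tested, Itgam of Mac-1, was at 1.85 to 2.92 RPKM in LT, 8.76 and 12.8 RPKM in ST and 4.18 and 6.50 RPKM in KLS- cells. It was higher in ST than in LT cells by 1.72 (SE 0.22, adjusted p = 0.00418) and in KLS- than in LT cells by 0.82 (SE 0.22, adjusted p = 0.0138), the latter not with libraries scaled to a common sum (0.53, adjusted p = 0.0630) or without CML KLS- cells (adjusted p = 0.243). Itgax and Itgad were at 0.126 RPKM or less in every library and were not tested.

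Of the beta 1 chain and its alpha partners, Itgb1 and Itga6 were lower in KLS- than in LT cells, whereas Itga4 and Itga5 were called in neither comparison with LT cells. Itgb1, on chromosome 8 (mm9, 131209554 to 131257100, plus strand, 16 exons), was at 25.5 and 23.6 RPKM in LT-HSCs, 22.6 in ST-HSCs and 19.3 in normal KLS- cells. The values in CML were 25.9 and 22.8 RPKM in LT-CML cells, 19.7 in ST-CML cells and 17.2 in CML KLS- cells. Both KLS- libraries were below the 6 others, at a mean of 18.3 RPKM, and LT cells were 1.34-fold above them. The log2 difference was -0.40 (SE 0.13, adjusted p = 0.0298), called under 11 of 15 alternatives, and it was lost without normal KLS- (-0.45, adjusted p = 0.122), CML KLS- (-0.36, adjusted p = 0.210), LT-HSC replicate 1 (adjusted p = 0.0619) or LT-CML replicate 1 (adjusted p = 0.0641). ST and LT cells differed by -0.20 (SE 0.13, adjusted p = 0.434) although their libraries did not overlap. The CML differences were -0.07 for stem cells (SE 0.15, adjusted p = 0.894) and -0.01 for LT cells (SE 0.18, adjusted p = 0.991).

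Itga4, the alpha 4 chain, on chromosome 2 (mm9, 79095583 to 79173280, plus strand, 29 exons), was at 14.2 and 12.3 RPKM in LT-HSCs, 17.1 in ST-HSCs and 14.3 in normal KLS- cells. Among CML libraries it was at 16.4 and 13.5 RPKM in LT-CML cells, 16.1 in ST-CML cells and 11.4 in CML KLS- cells. LT libraries overlapped both ST and KLS- libraries, which did not overlap each other, and its exons overlap those of Cerkl on the opposite strand, with no statement on whether counting used strand. KLS- against LT was -0.12 (SE 0.16, adjusted p = 0.534), except that scaling to a common sum gave -0.46 (adjusted p = 0.0349), or -0.18 relative to the median of all genes. ST against LT was 0.23 (SE 0.16, adjusted p = 0.463) and CML stem cells against normal HSCs 0.08 (SE 0.16, adjusted p = 0.899).

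Itga5, the fibronectin receptor chain, on chromosome 15 (mm9, 103174720 to 103197194, minus strand, 30 exons), was at 4.09 and 4.64 RPKM in LT-HSCs, 3.50 in ST-HSCs and 4.90 in normal KLS- cells. CML libraries had 4.79 and 3.90 RPKM in LT-CML cells, 3.86 in ST-CML cells and 5.56 in CML KLS- cells. The ST libraries were lowest and the KLS- libraries highest, without overlap between stages. The differences were 0.22 for KLS- against LT (SE 0.14, adjusted p = 0.229), which turned to -0.08 with libraries scaled to a common sum, and -0.19 for ST against LT (SE 0.14, adjusted p = 0.502). KLS- against ST was 0.41 (SE 0.16, adjusted p = 0.0746), and 0.53 with quantile normalization (adjusted p = 0.0286).

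Itga6, the laminin receptor chain also known as CD49f, on chromosome 2 (mm9, 71583673 to 71696473, plus strand, 26 exons), was at 9.51 and 16.8 RPKM in LT-HSCs, 6.98 in ST-HSCs and 3.65 in normal KLS- cells. The values in CML were 9.89 and 9.39 RPKM in LT-CML cells, 7.24 in ST-CML cells and 2.56 in CML KLS- cells. The order LT, ST and KLS- held without overlap in both normal and CML cells. LT cells were 3.67-fold and ST cells 2.29-fold above KLS- cells. The log2 difference was -1.57 for KLS- against LT (SE 0.21, adjusted p = 0.000663), called under 15 of 15 alternatives, and -0.99 for KLS- against ST (SE 0.25, adjusted p = 0.0120), called under 9 of 14. The latter was lost with quantile normalization (adjusted p = 0.0590) and without normal KLS- (0.0502), ST-CML (0.121) or CML KLS- cells (0.0872). ST against LT was -0.57 (SE 0.21, adjusted p = 0.178). Megakaryocyte markers were also highest in LT cells, and their part in the Itga6 level was not tested. CML stem cells against normal HSCs gave -0.23 (SE 0.29, adjusted p = 0.815).

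Itgb7, the beta 7 chain, on chromosome 15 (mm9, 102046426 to 102062366, minus strand, 15 exons), was at 1.43 and 2.19 RPKM in LT-HSCs, 3.20 in ST-HSCs and 1.51 in normal KLS- cells. Among CML libraries it was at 0.686 and 0.657 RPKM in LT-CML cells, 2.47 in ST-CML cells and 0.672 in CML KLS- cells, where the 3 low values rest on 33 to 39 estimated reads. At each stage the CML libraries were below the normal ones, although over all stages the groups overlapped. The difference was -0.58 for CML stem cells against normal HSCs (SE 0.32, adjusted p = 0.536) and -0.73 for LT-CML against LT-HSC (SE 0.19, adjusted p = 0.147, unadjusted p = 0.00620). In the fit of all 8 libraries with stage as a covariate it was -0.58 (SE 0.13, adjusted p = 0.0342), and the exact permutation p of 4 against 4 without regard to stage was 0.114, two-sided.

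By stage, ST cells were highest in Itgb7, 2.29-fold above LT cells in the means. The log2 difference was 0.82 for ST against LT (SE 0.16, adjusted p = 0.0232), called under 9 of 15 alternatives, with 0.62 and an adjusted p of 0.299 without ST-CML. It was also lost without ST-HSC (adjusted p = 0.0745), LT-HSC replicate 1 (0.0608) or either LT-CML library (0.0612 and 0.0613). KLS- against ST was -0.90 (SE 0.19, adjusted p = 0.00543), called under 13 of 14 and lost without ST-CML (-0.69, adjusted p = 0.0704). Itgae, the other alpha chain that pairs with beta 7, was at 0.0655 to 0.393 RPKM in LT and 0.763 and 0.853 RPKM in ST cells (0.55, SE 0.12, adjusted p = 0.0375). The 7 T and NK cell markers summed to 2.07 to 4.21 RPKM in LT, 3.05 and 3.63 RPKM in ST and 0.850 and 2.55 RPKM in KLS- cells, and their part was not tested.

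Non-overlap of libraries, read beside the tests, held for 7 of the 10 genes between KLS- and LT cells (57.2% of all genes tested), 7 of 10 between ST and LT cells (24.2%) and 9 of 10 between KLS- and ST cells (68.8%), where Itgb2 was the exception. Between CML stem cells and normal HSCs it held for 1 of 10, Itgb2 (18.3% of all genes), and between LT-CML and LT-HSC for 3 of 10, Itgb2, Itgb7 and Selplg (40.5%). With libraries scaled to a common sum, KLS- against ST also called Itga4 (-0.66, adjusted p = 0.0172), Itgb1 (-0.52, adjusted p = 0.0166) and Selplg (-0.66, adjusted p = 0.0278), with a median of -0.26 over all genes.

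Of 19 other integrin subunit genes, 11 passed the filter and were tested. For ST against LT, 3 were called higher and 3 lower, with a median of 0.10 against -0.01 for all genes. For KLS- against LT, 2 were higher and 5 lower, with a median of -0.38 against -0.07. Itga2b, the alpha IIb chain of the platelet fibrinogen receptor, was at 15.1 to 51.0 RPKM in LT, 4.72 and 5.85 RPKM in ST and 4.68 and 5.86 RPKM in KLS- cells. Its log2 difference was -2.30 for ST against LT (SE 0.28, adjusted p = 0.00343) and -2.31 for KLS- against LT (SE 0.28, adjusted p = 0.000354). Its partner Itgb3 was lower by -1.72 in ST (SE 0.23, adjusted p = 0.00469) and by -2.10 in KLS- cells (SE 0.23, adjusted p = 0.000203).

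Itgb3 was also the 1 integrin gene called between LT-CML and LT-HSC cells, at 18.2 and 18.6 RPKM against 4.68 and 5.62 RPKM (1.66, SE 0.20, adjusted p = 0.00946). The call was lost when any 1 of the 4 LT libraries was left out, with log2 differences of 1.55 to 1.77. Itga2b was higher in the same libraries, at 51.0 and 38.4 RPKM against 26.7 and 15.1 RPKM, without passing the test (1.10, SE 0.29, adjusted p = 0.147). The sum of the 6 megakaryocyte genes was 278 to 472 RPKM over these 4 libraries. It holds Itga2b as a member, and 1 other of its genes, Ppbp, was called lower in LT-CML (-1.13, SE 0.20, adjusted p = 0.0415). In the same comparison the sorting marker gene Flt3 was higher (1.96, SE 0.28, adjusted p = 0.0185), and the erythroid genes Car1 (-2.53, SE 0.30, adjusted p = 0.00946) and Ermap (-1.10, SE 0.20, adjusted p = 0.0490) were lower. The stromal marker gene Pdgfrb was higher (1.21, SE 0.19, limma adjusted p = 0.0282) and the B cell marker gene Cd79a lower (-1.51, SE 0.25, limma adjusted p = 0.0357). The part of cells with these markers in the Itgb3 level was not tested. Among low-level subunits, Itgb5 was higher in ST than in LT cells by 1.08 (SE 0.13, adjusted p = 0.00391) and Itgb6 was lower in KLS- than in LT cells by -0.88 (SE 0.11, adjusted p = 0.000398). Of the calls for KLS- against LT, those of Itgam and Itga1 were lost with libraries scaled to a common sum and those of Itga3 and Itgav with quantile normalization. The alpha partners of beta 1 Itga2 and Itga9 were lower in KLS- than in ST cells, by -0.82 (SE 0.22, adjusted p = 0.0170) and -0.61 (SE 0.18, adjusted p = 0.0254). Itgav was also lower (-0.56, SE 0.19, adjusted p = 0.0446), a call lost with quantile normalization. Itga1, another such partner, was called the other way (0.52, SE 0.17, adjusted p = 0.0410). With the common sum it was 0.45 (adjusted p = 0.0603). The Itga9 call was lost with quantile normalization (-0.46, adjusted p = 0.0703). The Itga2 call was lost without ST-HSC (-0.39, adjusted p = 0.1296), which had 1.91 RPKM against 0.242 RPKM in ST-CML, and without normal KLS- cells (-0.55, adjusted p = 0.150).

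**Figure D3:**
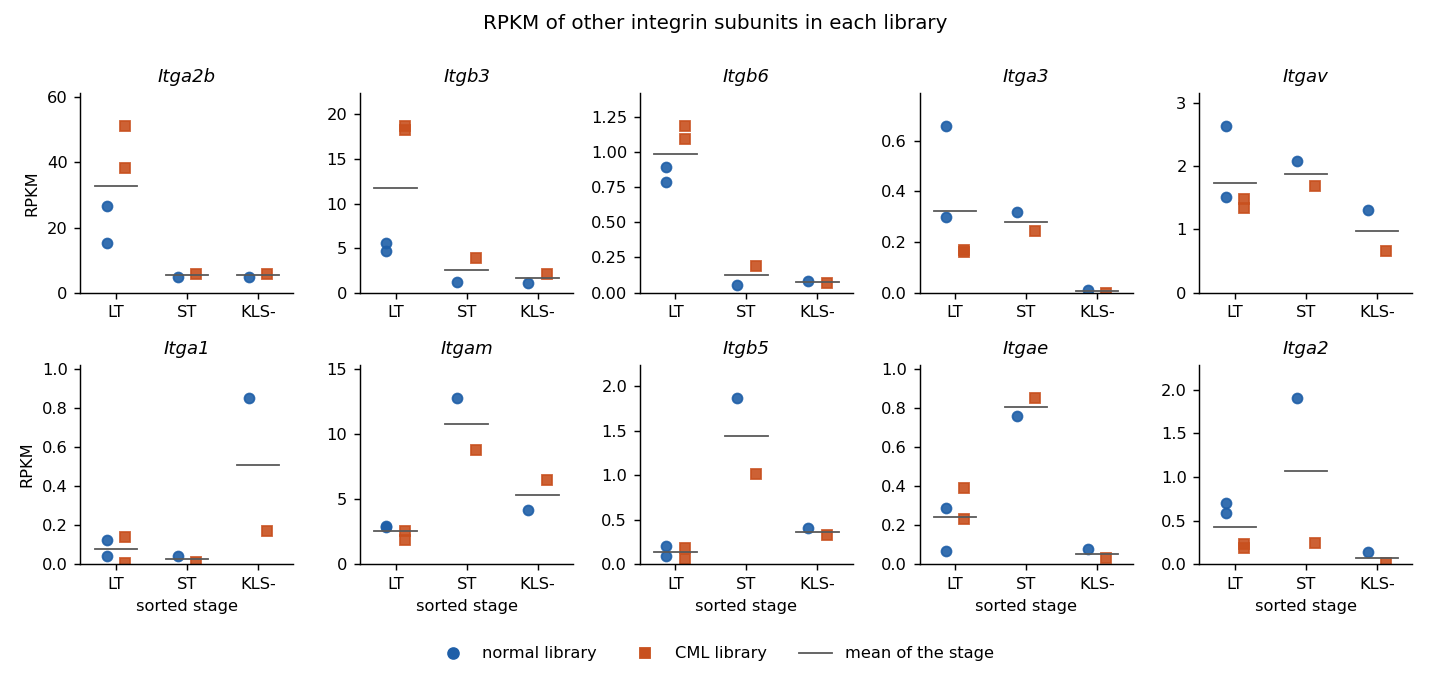
RPKM of 10 other integrin subunit genes called in at least 1 stage comparison, on linear axes from 0, by sorted stage, with circles for normal libraries, squares for CML libraries and lines at stage means. Itga2b and Itgb3 were highest in LT libraries, Itgam and Itgb5 in ST libraries, and the LT-CML squares of Itgb3, at 18.2 and 18.6 RPKM, were above the LT-HSC circles at 4.68 and 5.62 RPKM.

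Integrins bind ligands once talin, kindlin and RAP1 have switched them on, and 27 of 30 listed genes of activation and linkage were tested. For KLS- against LT, 5 were called higher and 7 lower, with a median of -0.05 against -0.07 for all genes. Of all genes, 20.8% were called higher and 25.5% lower. These list counts moved with the scaling, to 3 higher and 9 lower with quantile normalization and 3 and 10 with the common sum. Rasgrp2, an exchange factor for RAP1, was higher in KLS- cells by 1.56 (SE 0.17, adjusted p = 0.000242), at 22.1 and 22.7 RPKM against 5.69 to 8.44 RPKM. Rap1b, a RAP1 GTPase, was lower by -1.44 (SE 0.15, adjusted p = 0.000159), the kinase gene Ptk2b by -1.58 (SE 0.14, adjusted p = 7.94e-05) and the focal adhesion gene Zyx by -1.44 (SE 0.12, adjusted p = 7.08e-05). For ST against LT, 2 were higher and 3 lower, with Rap1b at 18.6 and 21.7 RPKM in ST and 45.9 to 61.2 RPKM in LT cells (-1.31, SE 0.15, adjusted p = 0.00291). Parvg was higher (0.91, SE 0.18, adjusted p = 0.0255), and Lims1 (-0.79, SE 0.15, adjusted p = 0.0198) and vinculin, Vcl (-0.77, SE 0.14, adjusted p = 0.0175), were lower. In CML stem cells 1 gene was called, Cytip, which binds a regulator of integrin adhesion, at 10.6 to 12.2 RPKM against 18.1 to 24.7 RPKM (-0.86, SE 0.16, adjusted p = 0.0374). With quantile, upper-quartile or common-sum scaling that call was lost, at adjusted p = 0.0614, 0.0550 and 0.0628, and likewise on leaving out any 1 of the 6 libraries, at 0.0609 to 0.157.

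Of 33 other homing and adhesion receptor genes 24 were tested, and 6 were higher and 12 lower in KLS- than in LT cells, with a median of -0.51 against -0.07 for all genes. The junction genes Esam (-4.68, SE 0.18, adjusted p = 3.37e-06) and F11r (-3.95, SE 0.21, adjusted p = 1.22e-05) were lower. Esam was at 36.4 to 58.2 RPKM in LT and 0.655 and 0.776 RPKM in KLS- cells. For ST against LT, 3 of the 24 were higher and 3 lower, among them Cd34 (1.78, SE 0.36, adjusted p = 0.0278), which was higher, and Hmmr, a hyaluronan receptor (-1.39, SE 0.15, adjusted p = 0.00247), which was lower. In the CML comparisons 0 of the 24 were called by limma, with 5 at an unadjusted p under 0.05 for CML stem cells and 4 for LT-CML.

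**Figure D4:**
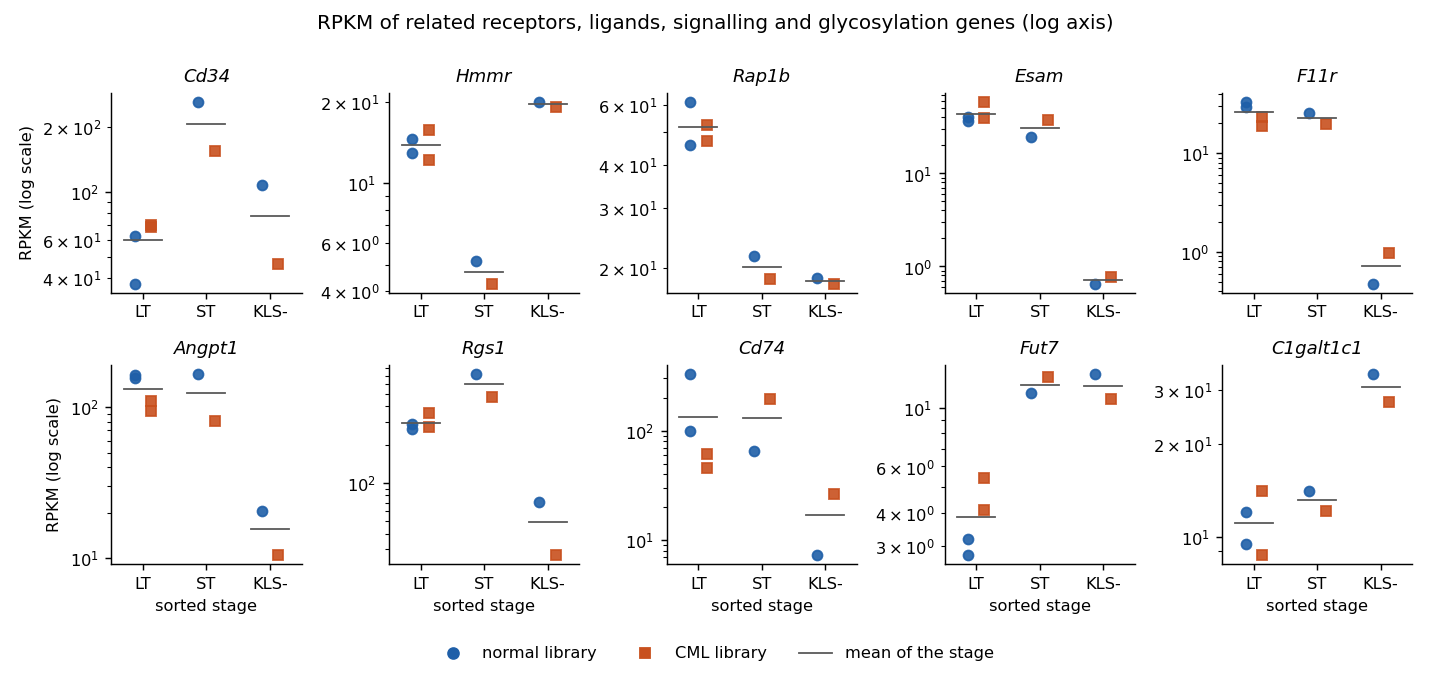
RPKM on a log axis of 10 genes of the other lists, by sorted stage, with circles for normal libraries, squares for CML libraries and lines at stage means. Esam, F11r, Angpt1 and Rgs1 were lower in both KLS- libraries than in every LT and ST library, Hmmr was lowest in ST libraries, Fut7 was lowest in LT libraries, and Angpt1 was lower in CML than in normal libraries at each stage.

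A list of 15 niche genes held mostly ligands, together with the receptor gene Lepr and the filament gene Nes, which are not ligands. Most of the 15 were near 0 in these haematopoietic cells. Of them 7 were tested, and the counts and medians of this list include Lepr, at 2.68 to 6.73 RPKM. Angpt1, the ligand of the stem cell receptor TIE2, was at 156 to 165 RPKM in the 3 normal HSC libraries and 81.0 to 109 RPKM in the 3 CML stem libraries (-0.77, SE 0.14, adjusted p = 0.0361), a call lost on leaving out any 1 of these 6 libraries, with differences of -0.88 to -0.67. In KLS- cells it was at 10.5 and 20.6 RPKM (KLS- against LT -3.03, SE 0.14, adjusted p = 9.26e-06). Slit2, of the SLIT family of Roundabout ligands, was at 0.895 and 0.935 RPKM in LT-CML and 0.0377 and 0.136 RPKM in LT-HSC cells (0.82, SE 0.12, adjusted p = 0.0238), also lost without any 1 of the 4 LT libraries. For KLS- against LT, Sele was higher (0.60, SE 0.10, adjusted p = 0.00186) and Selp lower (-1.16, SE 0.40, adjusted p = 0.0426), with 1 called higher and 3 lower of the 7, and a median of -0.41 against -0.07 for all genes. Of these the Selp and Slit2 calls were lost with quantile normalization. That of Selp was also lost in 5 of 8 leave-outs, without normal KLS- (-0.39, adjusted p = 0.517), ST-HSC, ST-CML or either LT-CML library, and that of Slit2 in 3 of 8, without CML KLS- (-0.17, adjusted p = 0.478) or either LT-CML library. For ST against LT 0 of the 7 were called by limma and 1 had an unadjusted p under 0.05.

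Of the genes named from these lists for ST against LT, the calls of Itgam, Itgb3, Cd34, Rgs2, Fut7, Parvg, Lims1 and Vcl were lost without the ST-HSC library, and those of Itga2b, Itgb3, Cd34, Rgs2, Fut7, Parvg, Lims1 and Vcl without the ST-CML library. Rap1b, Hmmr and Itgb5 kept theirs in both cases. Other libraries mattered too: over all 8 leave-outs Lims1 lost its call in 4, and Cd34 and Parvg in 3 each. Itgae was not followed through the leave-outs.

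The genes whose log2(RPKM + 1) ran most like that of Cxcr4 over the 8 libraries, among 2420 genes with a mean of at least 1 RPKM and an SD of at least 0.5 on that scale, were B3gnt8 (r = 0.956), Prg2 (r = 0.948) and Gpc1 (r = 0.928). For Selplg they were Il10rb (r = 0.974), Mgat1 (r = 0.955) and Cd244 (r = 0.954), and for Robo4 Zcchc18 (r = 0.994), Cyp4v3 (r = 0.993) and Axl (r = 0.993). These coefficients are descriptions over 8 libraries that share stage, depth and preparation.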

How the data were processed

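RNA was sequenced from 8 sorted bone marrow samples in 6 groups, of which LT-HSC and LT-CML had 2 libraries each. The authors prepared libraries with an ultra-low-input kit primed by oligo-dT, mapped reads to mm9 with SeqNova CS and deposited 1 RPKM value per gene and library, without scaling between libraries. The annotation, the counting rule, the treatment of multi-mapping reads and the use of strand are not given in the sources used here. RPKM are not counts, so values were tested as log2(RPKM + 1) with limma 3.58.1 in R 4.3.3 over 12561 genes with a total above 1 RPKM, and p-values were adjusted by the Benjamini-Hochberg method over all of these genes, with a threshold of 0.05.

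CML stem cells (3 libraries) were compared with normal HSCs (3), and LT-CML with LT-HSC in a model of the 8 libraries that gave each of the 6 groups a mean. Stages were compared in a fit of all 8 libraries with CML or normal as a covariate, which assumes that single libraries vary like the replicated ones. It also assumes the same CML difference at every stage, as does the added fit of CML against normal with stage. Departures from that enter the SE, which is thus not the spread of replicates alone. Depth was estimated from the steps between low RPKM values, which were found for 71.3% of 4197 low genes. Positions came from the GENCODE annotation of mm9, and promoters from a RefSeq table on GRCm38.p6, which is not the build of the files and was matched by symbol. The fits were also run on simulated data with large added changes and independent noise. For the stage fits, that did not probe smaller changes or CML differences that vary by stage. Alternatives were a pseudocount of 0.1, other filters, 3 scalings, other fits and leaving out each library. The 10 genes and the lists were chosen with earlier results of these data known. All 10 genes are described, and from each list at most the 4 called genes with the largest change per comparison are named, together with partner chains of the integrins. Some genes of these lists are counted but not reported here by name.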

Additional observations from a re-analysis of the deposited data

Results flagged for a closer look

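Itga6 in LT-HSC replicate 2 stood apart from the other LT libraries, at 16.8 RPKM against 9.39 to 9.89 RPKM in the other 3. Its gap to the nearest value was too large a part of the range for 4 samples by Dixon's criterion at 95%. Chance gives such a gap in about 1 in 20 groups, and 10 genes were examined. This library is the 1 from mice labelled 6 months old and has the highest granulocyte marker sum of the LT libraries, 4144 RPKM, and the part of either was not tested. Without it, Itga6 in KLS- against LT cells kept its call.

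Selplg had differences of opposite sign between CML and normal cells in LT and KLS- libraries, but that in KLS- was too small to show a direction. Both LT-CML libraries, at 17.0 and 17.7 RPKM, were above both LT-HSC libraries, at 15.5 and 11.3 RPKM, whereas the CML KLS- library, at 20.95 RPKM, was below the normal KLS- library, at 21.8 RPKM. The KLS- gap, -0.06 on the log2 scale, rests on 1 library a group and is about the size of their counting errors, 3.22% and 2.96% by the estimated reads. Whether the CML difference departs between LT and KLS- alone was not tested. The test of the CML difference in KLS- cells minus that in LT and ST cells together gave -0.36 (SE 0.63, limma adjusted p = 0.9999).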

How the results depend on the processing

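No paired analysis was possible because the labels give the groups no shared replicate numbers. KLS- and ST hold 1 normal and 1 CML library each, so a difference between them and LT rests on 2 libraries, and low values such as Robo4 in KLS- cells are limited by depth.

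With no minimum on RPKM, genes called fell to 173 from 294 for CML stem cells against normal HSCs, to 0 from 217 for LT-CML against LT-HSC and to 127 from 612 for ST against LT, with 0 of the 10 genes called for ST against LT, 3 for KLS- against ST and 4, down from 6, for KLS- against LT (Cxcr4 and Selplg were lost), while 206 were called for the CML effect in KLS- minus that in stem cells, against 1 in the planned setting. That last count was 0 with a pseudocount of 0.1, with a mean of at least 1 RPKM and with a common sum, and 9 with separate stages. CML stem cells against normal HSCs gave 543 genes with LT or ST as a covariate and 776 in the fit of all 8 libraries, 2 of them among the 10 genes. The cause was not tested.

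Leaving out 1 library gave 115 to 217 genes for CML stem cells against normal HSCs, 6 to 74 for LT-CML against LT-HSC, 2879 to 5574 (5823 with all libraries) for KLS- against LT, 110 to 718 for ST against LT, 0 to 1 for the CML effect in KLS- minus that in stem cells and 2511 to 5586 (5021) for KLS- against ST. Of the 10 genes it called 0 in both CML comparisons, 3 to 6 for KLS- against LT, 0 to 3 for ST against LT and 3 to 5 for KLS- against ST.

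Signs turned only for differences that were not called. For CML stem cells against normal HSCs, Itga4 was -0.017 in the fit of all 8 libraries, Itgal 0.0080, 0.0055 and 0.019 with quantile, upper-quartile and common-sum scaling, and Itgb1 0.0029 with the common sum. With the common sum, LT-CML against LT-HSC gave 0.047 for Itga5 and 0.054 for Itgb1, KLS- against LT -0.083 for Itga5 and KLS- against ST -0.066 for Itgb2. Itgb7 was 0.24 for KLS- against LT with quantile normalization. Leaving out 1 library turned further uncalled signs. For CML stem cells the ranges were -0.029 to 0.19 for Itga4, -0.053 to 0.11 for Itga5, -0.48 to 0.092 for Itga6, -0.38 to 0.44 for Itgal, -0.16 to 0.025 for Itgb1 and -0.25 to 0.24 for Robo4. For LT-CML they were -0.28 to 0.56 for Cxcr4, -0.13 to 0.11 for Itga5, -0.74 to 0.017 for Itga6, -0.076 to 0.26 for Itgal, -0.10 to 0.079 for Itgb1 and -0.23 to 0.10 for Robo4. For KLS- against LT they were -0.31 to 0.062 for Itga4, -0.23 to 0.12 for Itgb2 and -0.12 to 0.036 for Itgb7, for ST against LT -0.11 to 0.80 for Cxcr4 and -0.66 to 0.050 for Itgb2, and for KLS- against ST -0.11 to 0.60 for Itgb2.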
